A study of Mus musculus with 9 samples.

Results

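The genes that build sterols and fatty acids were examined in macrophages sorted from mouse lung, 36 genes in all, of which 24 belong to the sterol branch and 12 to the fatty acid branch. They were taken by their place in the pathways: the enzymes from acetyl-CoA to squalene (early mevalonate steps), the enzymes from squalene to cholesterol (late steps), the regulators of the pathway, and the enzymes that supply, elongate and desaturate fatty acids. Every probe of the arrays annotated to these genes, or to an older alias of them, was read, which gave 55 probes for 33 genes. No probe of these arrays was annotated to Acat2, Hmgcs1 or Fdft1. Of the 33 genes, 24 had a probe above background on at least 3 of the 9 arrays and entered the tests, 15 of the sterol branch and 9 of the fatty acid branch, of 12246 genes tested in all. Background was judged from the deposited detection p-values, at p below 0.05.

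Expression was measured on 9 single-colour Illumina beadchip arrays, in 3 groups of 3. All cells were lung macrophages of female mice, strain C57/BL6 and 8 weeks old, that carried LysMCre, a Cre recombinase driven by the promoter of the myeloid gene Lyz2, and were sorted on SiglecF and CD11b at the cell surface. The Pparg-deficient group came from Pparg-/-.LysMCre mice, and its titles call the cells "int pop", a term that is not explained in the sources used here. The homozygous wild type group came from mice with the same genotype label, Pparg-/-.LysMCre, but its cells are labelled as wild type alveolar macrophages. The heterozygous group came from Pparg-/+.LysMCre mice, whose cells are labelled wild type too. The sources used here name no step beyond the sort that separated wild type from deficient cells within the same genotype. The titles place the 3 Pparg-deficient arrays on 1 beadchip and the 6 control arrays on another, so chip and Pparg deficiency cannot be told apart, whereas both control groups shared a chip. Nothing says whether the numbered samples are separate mice, so the p-values reflect the spread between samples alone, and that spread may be technical.

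Cholesterol is built from acetyl-CoA by way of mevalonate, farnesyl diphosphate, squalene and lanosterol, and the same acetyl-CoA is the starting point of fatty acids. The transcription factors SREBP-1 and SREBP-2, encoded by Srebf1 and Srebf2, switch on these enzymes when membrane sterols are scarce: the escort protein Scap then carries them from the endoplasmic reticulum, where Insig1 and Insig2 otherwise hold them back. Alveolar macrophages take up and break down pulmonary surfactant, a lipid film rich in phospholipid and cholesterol, and PPARg, the nuclear receptor encoded by Pparg, is known for its part in their lipid handling.

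Promoter sequences, 250 bases before to 50 after the start site, were taken from RefSeq (GRCm38.p6), which held entries for 29 of the 36 genes. Those of 4 genes described below are shown, none of them called in any comparison. Hsd17b7 and Idi1 stand for sterol enzymes with their lowest signals in the homozygous wild type group. Insig1 stands for the regulator with its highest signals in the Pparg-deficient group, and Elovl5 for the fatty acid branch. Hsd17b7 lies on the minus strand at chr1:169969156-169969455, Idi1 on the plus strand at chr13:8885356-8885655, Insig1 on the plus strand at chr5:28071162-28071461 and Elovl5 on the plus strand at chr9:77917115-77917414. Each is written 5′ to 3′ on the strand of its gene, and capitals mark matches to CCAAT, the box bound by the factor NF-Y, which reads ATTGG on the opposite strand, and to the palindrome CACGTG, an E-box.
Hsd17b7: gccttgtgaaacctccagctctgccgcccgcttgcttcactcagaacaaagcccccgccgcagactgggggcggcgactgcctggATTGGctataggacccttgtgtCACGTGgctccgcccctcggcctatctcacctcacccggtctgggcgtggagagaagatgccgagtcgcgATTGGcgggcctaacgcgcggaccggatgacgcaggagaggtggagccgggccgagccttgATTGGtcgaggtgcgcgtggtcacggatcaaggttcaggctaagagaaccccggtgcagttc
Idi1: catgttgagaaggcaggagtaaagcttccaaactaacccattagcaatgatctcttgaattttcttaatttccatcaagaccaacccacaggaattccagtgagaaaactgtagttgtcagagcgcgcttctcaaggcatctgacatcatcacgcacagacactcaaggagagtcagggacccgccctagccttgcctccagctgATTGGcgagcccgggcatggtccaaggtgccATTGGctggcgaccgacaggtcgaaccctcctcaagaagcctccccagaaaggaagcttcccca
Insig1: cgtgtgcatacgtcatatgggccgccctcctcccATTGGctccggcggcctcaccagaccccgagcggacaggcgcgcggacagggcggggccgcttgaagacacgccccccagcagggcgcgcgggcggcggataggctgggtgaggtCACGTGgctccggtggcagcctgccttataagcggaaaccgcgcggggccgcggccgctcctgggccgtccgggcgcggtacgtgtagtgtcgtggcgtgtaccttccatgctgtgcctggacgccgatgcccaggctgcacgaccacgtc
Elovl5: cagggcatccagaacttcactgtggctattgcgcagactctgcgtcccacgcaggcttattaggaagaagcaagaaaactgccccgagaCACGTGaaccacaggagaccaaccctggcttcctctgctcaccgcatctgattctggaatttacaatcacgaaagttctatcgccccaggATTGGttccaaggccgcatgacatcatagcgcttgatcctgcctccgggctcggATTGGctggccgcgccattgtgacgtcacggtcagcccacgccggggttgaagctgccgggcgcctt
All CCAAT boxes shown were on the opposite strand, 3 in Hsd17b7, 2 in Idi1, 1 in Insig1 and 2 in Elovl5. Searched on both strands, CCAAT was present in at least 1 promoter of 14 of 15 sterol enzymes with an entry (93.3%) and of 6 of 9 fatty acid genes (66.7%), against 41.1% of all 27025 genes in the table. The E-box CACGTG was present for 3 of the 15 sterol enzymes (20%) and 1 of the 9 fatty acid genes (11.1%), against 8.09% of all genes. The letters TCACNCCAC, a short form of the sterol regulatory element, were present for 1 of the 15 sterol enzymes, Hmgcs1, and none of the 9 fatty acid genes, against 1.44% of all genes. These matches describe the letters of these windows, and the marked CCAAT and CACGTG matches do not overlap.

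No single gene of these pathways was called between Pparg-deficient macrophages and both control groups together, while the medians of the branches lay on opposite sides of 0. Signals are given as normalized log2 values, corrected for background and quantile normalized, and differences are log2 differences from a linear model fitted over all 9 arrays with limma. The threshold for a call was a p under 0.05 after Benjamini-Hochberg adjustment over the 12246 genes. Against both controls, 0 of the 24 genes were called, beside 0.768% of all genes (94 genes, 70 higher and 24 lower). At an unadjusted limma p under 0.05, 6 of the 24 passed, beside 12.8% of all genes: the sterol genes Fdps, Sqle and Insig1 were on the higher side (beside 6.04% of all genes) and the fatty acid genes Elovl5, Elovl6 and Scd1 on the lower side (beside 6.72%). The difference was positive for 13 of the 15 sterol genes, with a median of 0.41, and negative for 8 of the 9 fatty acid genes, with a median of -0.41. Over all genes the median was -0.07, with 5315 positive and 6931 negative. These counts moved with the processing: without normalization between arrays 9 of the 15 sterol genes were positive, and with the array median as a covariate 9 of the 15 were positive and 6 of the 9 fatty acid genes negative. The 3 higher and 3 lower genes at an unadjusted limma p under 0.05 became 0 and 0 without Pparg-deficient replicate 2, 0 and 5 without normalization, and 1 and 2 with both controls as 1 group. Elovl6 and Scd1 were above background on no Pparg-deficient array and passed the filter through the controls, so their lower side was fixed by the filter. Without both, 6 of 7 fatty acid genes were negative and the median was -0.16. In a simulation of this comparison over 12246 genes, a change of 1 log2 unit was called in 10 of 100 genes and a change of 2 in 81 of 100.

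The branches differed in which arrays were low. Relative to each gene's mean over the 9 arrays, the median of the 11 sterol enzymes was 0.17, 0.50 and -0.03 on the Pparg-deficient arrays, -0.12, -0.61 and -0.73 on the homozygous wild type arrays and 0.22, 0.45 and -0.11 on the heterozygous arrays. The homozygous wild type arrays were the lowest of the 9, by a margin of 0.01 for the highest of them, beside a pooled SD of 0.29, and the other groups overlapped each other. With the 4 regulators included the homozygous wild type group was not separate: the median of the 15 sterol genes was -0.29 on heterozygous array 3, below the -0.05 on homozygous wild type array 1. The median of the 9 fatty acid genes was -0.45, -0.35 and -0.10 on the Pparg-deficient arrays, -0.09, 0.17 and 0.14 on the homozygous wild type arrays and -0.04, 0.09 and 0.34 on the heterozygous arrays. Here the Pparg-deficient arrays were the lowest, the highest of them 0.01 under the lowest homozygous wild type array, beside a pooled SD of 0.17. Without Elovl6 and Scd1 the Pparg-deficient arrays, at -0.12, -0.31 and 0.10, overlapped the controls. Over all genes these medians stayed between -0.08 and 0.09.

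**Figure D1:**
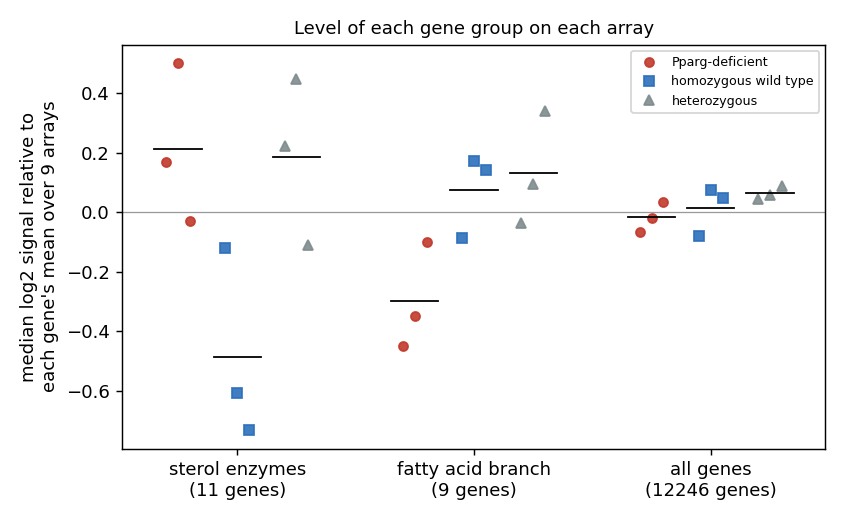
Median log2 signal of each gene group on each array, relative to each gene's own mean over the 9 arrays (y axis, log2 units). Symbols are arrays, black lines group means of 3 arrays. The sterol enzymes sit lowest on the 3 homozygous wild type arrays (-0.12, -0.61 and -0.73) and the fatty acid genes on the 3 Pparg-deficient arrays, each by a margin of 0.01. With the sterol regulators included, the homozygous wild type arrays were not separate. Without Elovl6 and Scd1, above background on no Pparg-deficient array, the fatty acid medians of the Pparg-deficient arrays (-0.12, -0.31 and 0.10) overlapped the controls.

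Against each control group separately, the sterol branch gave unlike values. Against homozygous wild type cells its median difference was 0.61 and 12 of 15 genes were positive, whereas against heterozygous cells the median was 0.04 with 9 of 15 positive. Between the control groups, homozygous wild type minus heterozygous, the median was -0.63 and 11 of 15 genes were negative. These comparisons share arrays, so their values are given side by side and are not independent of one another. The fatty acid branch had a median of -0.35 against homozygous wild type cells, -0.33 against heterozygous cells and 0.02 between the control groups. Without Elovl6 and Scd1, which the filter admitted through the controls alone, these medians were -0.18, -0.33 and 0.02. Over all genes the medians of the same comparisons were -0.04, -0.12 and -0.07. At an unadjusted p under 0.05, 5 of the 11 sterol enzymes were higher in Pparg-deficient than in homozygous wild type cells, beside 4.05% of all genes, and 6 of the 11 were lower in homozygous wild type than in heterozygous cells, beside 2.73% of all genes.

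Among the early mevalonate enzymes, Fdps stood apart. It encodes farnesyl diphosphate synthase, which makes the precursor of both squalene and protein prenyl groups. Its brightest probe read 7.11, 7.72 and 7.75 on the Pparg-deficient arrays, 4.63, 5.56 and 5.19 on the homozygous wild type arrays and 7.68, 8.56 and 8.27 on the heterozygous arrays. The homozygous wild type arrays lay at least 1.55 log2 units below every other array, and only 1 of the 3 was above background. Fdps was higher in Pparg-deficient than in homozygous wild type cells, by 2.40 (SE 0.354, limma adjusted p = 0.0393), and was the single gene of the 24 called in that comparison, beside 0.196% of all genes in either direction and 0.147% on the higher side. With every signal not above background set to no less than the lowest signal above it on that array, the difference was 2.33 (SE 0.328, limma adjusted p = 0.0242), a setting chosen after seeing the data. It was lower in homozygous wild type than in heterozygous cells, by a log2 difference of -3.04 (SE 0.354, limma adjusted p = 0.0276), again the single call among the 24, beside 0.0327% of all genes. In the floored setting that difference was -2.97 (SE 0.328, limma adjusted p = 0.0302). Fdps was the 1 gene of all 12246 called lower in that comparison (0.00817%; 0.0245% were called higher), in which both groups shared a chip. Against heterozygous cells the Pparg-deficient value differed by -0.64 (limma adjusted p = 0.449), and against both controls by 0.88 (SE 0.307, limma adjusted p = 0.282), neither of them called. Against heterozygous cells 0 of the 24 genes were called with limma, beside 1.05% of all genes, and 1 of 24, Elovl6, passed an unadjusted p under 0.05, beside 13.8%.

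The size and the calls for Fdps depended on the processing, while the direction did not. Before correction its signals were 238, 347 and 350 on the Pparg-deficient arrays, 143, 280 and 230 on the homozygous wild type arrays and 388, 556 and 573 on the heterozygous arrays, while the medians over all probes of the same Pparg-deficient arrays were 146, 160 and 184, those of the homozygous wild type arrays 145, 242 and 210, and those of the heterozygous arrays 198, 217 and 290.3. The homozygous wild type signals thus lay close to the median of their arrays, and the raw values of the Pparg-deficient and homozygous wild type groups overlapped. Without background correction the differences were 0.78 against homozygous wild type cells (limma adjusted p = 0.0531) and -1.15 between the control groups (limma adjusted p = 0.0263). Leaving out 1 array at a time, the Pparg-deficient call held without heterozygous replicate 1 (limma adjusted p = 0.0472) and was lost without each of the other 8 arrays (differences 2.12 to 2.61, adjusted p up to 0.256). The call between the control groups held without Pparg-deficient replicate 1 (limma adjusted p = 0.0492) and was lost without each of the other 8 (differences -2.74 to -3.28, adjusted p up to 0.183). A dimmer Fdps probe, above background on 4 arrays, differed by 0.42 and -0.43 in these comparisons and was not called.

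Other mevalonate enzymes had smaller differences in the same arrays. Idi1, the isomerase that makes dimethylallyl diphosphate and whose promoter is printed above, read 9.07, 8.77 and 8.63 on the Pparg-deficient arrays, 7.62, 8.21 and 7.82 on the homozygous wild type arrays and 8.83, 8.94 and 9.11 on the heterozygous arrays. All 3 homozygous wild type arrays lay below the other 6, and the other groups overlapped. The difference was 0.95 between Pparg-deficient and homozygous wild type cells (SE 0.265, limma adjusted p = 0.344) and -1.08 between homozygous wild type and heterozygous cells (SE 0.265, limma adjusted p = 0.384), so neither was called. Pmvk, phosphomevalonate kinase, read 7.68, 7.38 and 7.34 on the Pparg-deficient arrays, 7.25, 6.95 and 6.83 on the homozygous wild type arrays and 7.57, 7.30 and 8.03 on the heterozygous arrays. Its homozygous wild type arrays were the 3 lowest by a narrow margin, the highest of them 0.06 under the lowest heterozygous array. Its difference from both controls was the smallest of these enzymes, 0.14 (SE 0.241, limma adjusted p = 0.844). Mvd, the decarboxylase after Pmvk, was above background on 4 of 9 arrays and went the other way, with -0.99 against homozygous wild type cells (limma adjusted p = 0.742).

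**Figure D2:**
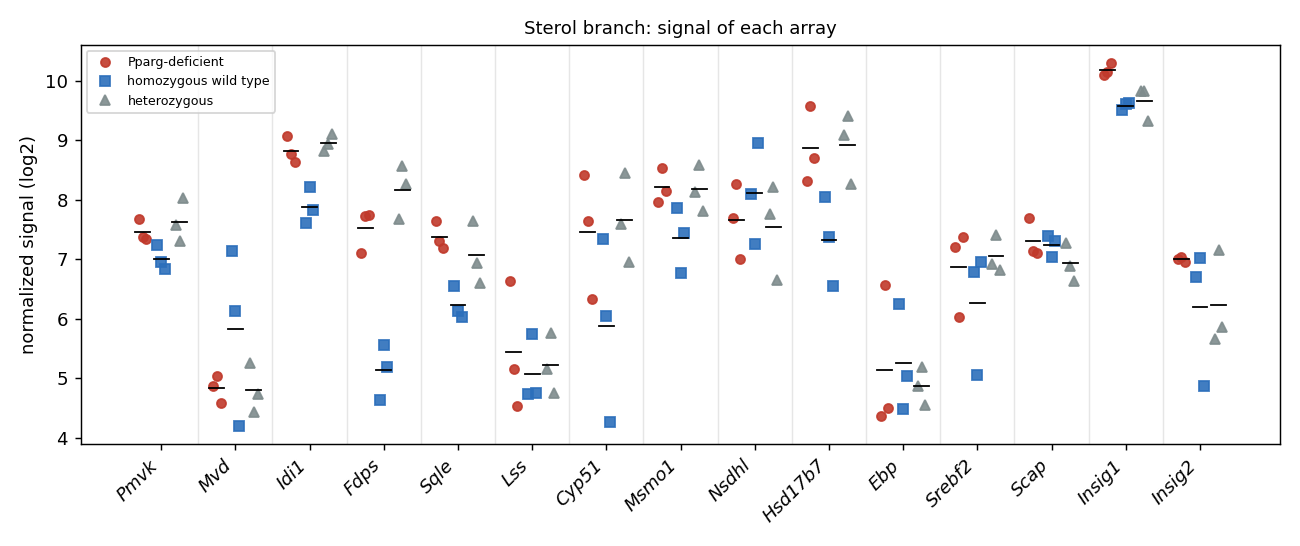
Normalized log2 signal (y axis) of the 15 measured sterol branch genes on each of the 9 arrays. Symbols are arrays, black lines group means of 3, and levels of different genes come from different probes and are not comparable. For Fdps, Idi1, Pmvk, Sqle and Hsd17b7 the 3 homozygous wild type arrays lie below the other 6, and for Insig1 the 3 Pparg-deficient arrays lie above the other 6.

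Of the late enzymes, Sqle and Hsd17b7 had their lowest signals in homozygous wild type cells too. Sqle encodes squalene epoxidase, a flux-controlling step of sterol synthesis. Its brightest probe read 7.64, 7.30 and 7.18 on the Pparg-deficient arrays, 6.54, 6.12 and 6.02 on the homozygous wild type arrays and 7.65, 6.94 and 6.60 on the heterozygous arrays. The highest homozygous wild type array lay 0.06 under the lowest heterozygous array, and the lowest Pparg-deficient array lay 0.64 above it. The difference was 1.14 against homozygous wild type cells (SE 0.326, limma adjusted p = 0.352) and 0.73 against both controls (SE 0.282, limma adjusted p = 0.329). Its other passing probes disagreed in sign, with differences from both controls of 1.19 and -0.52, neither called.

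Hsd17b7, the keto reductase of the sterol demethylation steps, read 8.32, 9.58 and 8.70 on the Pparg-deficient arrays, 8.04, 7.38 and 6.55 on the homozygous wild type arrays and 9.08, 9.40 and 8.26 on the heterozygous arrays. Homozygous wild type arrays were the 3 lowest, and the other groups covered the same range. The difference was 1.55 against homozygous wild type cells (SE 0.483, limma adjusted p = 0.404) and -1.59 between homozygous wild type and heterozygous cells (SE 0.483, limma adjusted p = 0.6). Its difference from both controls, 0.75 (SE 0.418, limma adjusted p = 0.495), was the largest of the late enzymes. Cyp51, the lanosterol demethylase, and Msmo1, the methylsterol monooxygenase that follows it, differed by 1.58 (SE 0.786) and 0.85 (SE 0.351) from homozygous wild type cells, with limma adjusted p of 0.642 and 0.558. For Msmo1 the Pparg-deficient arrays lay above the homozygous wild type arrays, by 0.10 at the closest, while for Cyp51 they overlapped. Nsdhl, the decarboxylating dehydrogenase of the same steps, went the other way with -0.45 (SE 0.544), and its 3 passing probes all had negative differences from homozygous wild type cells.

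Ebp, the sterol isomerase, and Lss, lanosterol synthase, were dim throughout. Ebp read 4.36, 6.57 and 4.50 on the Pparg-deficient arrays, 6.25, 4.48 and 5.04 on the homozygous wild type arrays and 4.86, 5.19 and 4.54 on the heterozygous arrays, and was above background on 1 array of each group. The groups overlapped fully, and the difference from both controls of 0.08 (SE 0.544, limma adjusted p = 0.963) was the smallest of the late enzymes. Lss was above background on 4 arrays and differed by 0.29 (SE 0.468).

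In all, 5 of the 11 sterol enzymes measured (Fdps, Idi1, Pmvk, Sqle and Hsd17b7) had all 3 homozygous wild type arrays below the other 6, beside 0.939% of all genes. None of the 9 fatty acid genes did. This arrangement was noticed after the values were seen. As a comparison added then, homozygous wild type against the mean of both other groups called Fdps (-2.72, SE 0.307, limma adjusted p = 0.0411), 1 of 5 genes called in all (0.0408%). The count was 4 of 11 in the authors' normalized table and, without normalization between arrays, 3 of 11 (Fdps, Idi1 and Sqle). With the mean of passing probes it was 4 of 11, without Sqle. On the other passing probes of Fdps and Sqle the homozygous wild type arrays were not all below the other 6. Without homozygous wild type replicate 1 it was 7 of 10, with Cyp51 and Msmo1 added, beside 3.01% of all genes. Without homozygous wild type replicate 2 or replicate 3 it was 5 of 11, beside 3.49% and 2.55%. With an array left out the arrangement is easier to meet. Markers of other cells were summed as linear signals. The sum of 6 monocyte and interstitial macrophage markers was 3053 to 5138 on the Pparg-deficient arrays, above all control arrays. It was 1413 to 2246 on the homozygous wild type arrays and 1020 to 1621 on the heterozygous arrays. Differences of the 6 markers from both controls ran from 0.11 for C1qa to 3.50 for C1qb. Ly6c2 and Ccr2, which mark monocytes, did not pass the filter. The summed signal of 7 markers of lung epithelium overlapped between the groups, at 2035 to 2599 on the Pparg-deficient arrays. It was 1656 to 2109 on the homozygous wild type arrays and 2019 to 2155 on the heterozygous arrays. Of the 7 differences from both controls, 3 were positive and 4 negative, from -2.03 for Epcam to 0.95 for Napsa, none called. Epcam passed the filter through the controls alone, so its lower side was fixed. Cdh1, the brightest of the 7 and the largest part of the sum, differed by 0.08, so the overlap of the sums says little about the other markers. Sums of the neutrophil, eosinophil, dendritic cell and T, B and NK cell markers measured overlapped between the groups too, over 3, 1, 4 and 1 genes. Among the neutrophil markers S100a8 differed from both controls by 1.33, Csf3r by -0.59 and Camp by -0.70, none called. An overlap of such sums thus does not show that these cells were alike between the groups. Of 8 alveolar macrophage markers measured, Siglecf and Marco were called lower in Pparg-deficient cells than in both controls, beside 0.196% of all genes. The cells were sorted on SiglecF, so the Siglecf signal may not be independent of the sort, which was not tested. Cidec was called lower too, but it passed the filter through the controls alone, so its side was fixed. Itgax went the other way, higher by 0.54 and not called. Krt79 was above background on the 3 heterozygous arrays alone, and Car4, Chil3 and Plet1 were not called. The summed signal of the 8 markers, Chil3 the brightest, was 8100 to 8557 on the Pparg-deficient arrays. It was 9386 to 10591 on the homozygous wild type arrays and 9396 to 10111 on the heterozygous arrays. The part of these other cell types in the values of the sterol enzymes was not tested. In sorted bulk samples, fewer cells of a type and less RNA per cell cannot be told apart.

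Among the regulators, Insig1 had its highest signals in Pparg-deficient cells. The gene encodes the protein that retains the Scap complex in the endoplasmic reticulum and is itself a target of SREBP. Its brightest probe read 10.10, 10.15 and 10.30 on the Pparg-deficient arrays, 9.52, 9.61 and 9.62 on the homozygous wild type arrays and 9.83, 9.83 and 9.33 on the heterozygous arrays. All 3 Pparg-deficient arrays lay above the 6 control arrays. Insig1 was the 1 gene of the 24 for which this held, beside 3.58% of all genes. That count is near the share over all genes, and nothing is read from it. No gene of the 24 had all 3 Pparg-deficient arrays below the controls, beside 3.3%. The difference was 0.56 (SE 0.215, limma adjusted p = 0.321), not called. Its other passing probes gave differences of 0.80, 1.33 and 1.45 with limma adjusted p from 0.173 to 0.498 over all 4 probes when each probe was tested. On 3 of the 4 probes all Pparg-deficient arrays lay above the 6 control arrays, beside 3.66% of the 17277 annotated probes that passed the filter. The 4 probes read the same RNA samples and are not replicates.

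**Figure D3:**
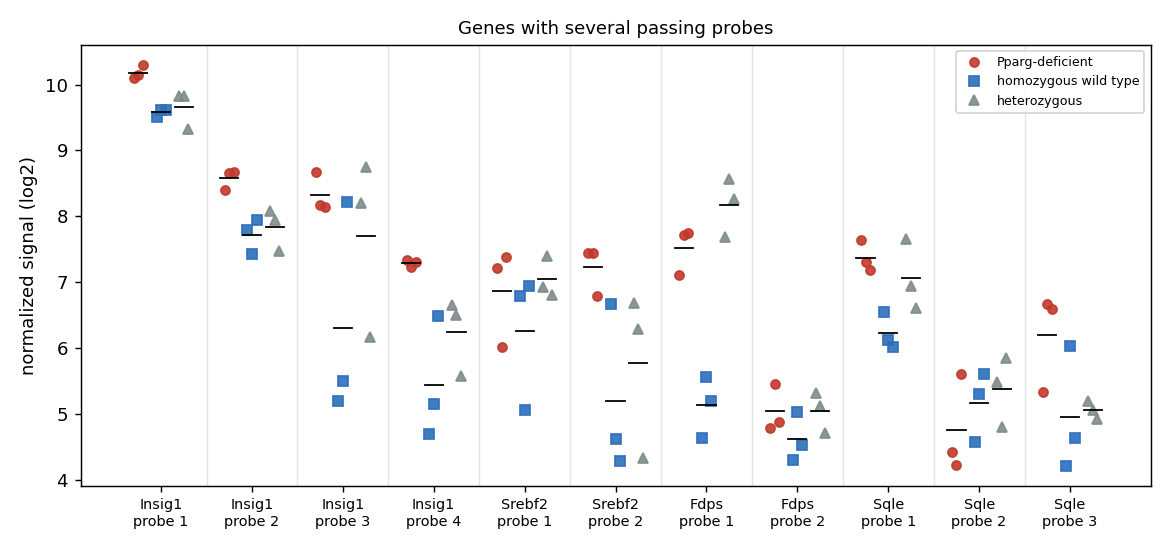
Normalized log2 signal (y axis) of every passing probe of Insig1, Srebf2, Fdps and Sqle on each array, ordered by mean control signal within a gene. Symbols are arrays, black lines group means of 3. The Pparg-deficient arrays lie above all controls on 3 of 4 Insig1 probes and on the dimmer Srebf2 probe, and the low homozygous wild type signal of Fdps is seen on its brighter probe.

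Insig2, the second Insig protein, read 7.01, 7.04 and 6.95 on the Pparg-deficient arrays, 6.70, 7.02 and 4.86 on the homozygous wild type arrays and 5.66, 7.15 and 5.86 on the heterozygous arrays. Its Pparg-deficient arrays were within 0.09 of each other, while a control array of each group reached them. The difference of 0.79 from both controls was the largest of the regulators (SE 0.499, limma adjusted p = 0.553). Srebf2, which encodes SREBP-2, read 7.21, 6.02 and 7.38 on the Pparg-deficient arrays, 6.78, 5.05 and 6.94 on the homozygous wild type arrays and 6.92, 7.40 and 6.81 on the heterozygous arrays. The groups overlapped and the difference was the smallest of the regulators, 0.22 (SE 0.469, limma adjusted p = 0.884). Its dimmer probe had all 3 Pparg-deficient arrays above the controls and a difference of 1.75 (SE 0.628, limma adjusted p = 0.302), so its probes did not give 1 size. Scap differed by 0.22 (SE 0.249). Srebf1, which encodes SREBP-1, passed the filter with neither of its probes: 1 was above background on a single Pparg-deficient array and a single homozygous wild type array.

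The fatty acid branch had no called gene in any of the 4 limma comparisons, and its differences from both controls ran from -1.08 to 0.17. At an unadjusted limma p under 0.05, 3 of its 9 genes were lower than in both controls (beside 6.72% of all genes), 2 lower than in homozygous wild type cells (beside 4.23%) and 1 lower than in heterozygous cells (beside 6.97%). These counts include Scd1 and Elovl6, which the filter admitted through the controls, and nothing is read from them. Acly, ATP-citrate lyase, which makes cytosolic acetyl-CoA for both branches, read 10.30, 10.37 and 10.43 on the Pparg-deficient arrays, 10.26, 10.43 and 10.40 on the homozygous wild type arrays and 10.22, 9.84 and 10.06 on the heterozygous arrays. Pparg-deficient and homozygous wild type arrays covered the same range, with the heterozygous arrays below it, and the difference from both controls was 0.17 (SE 0.202, limma adjusted p = 0.779). Fasn, fatty acid synthase, read 6.52, 6.66 and 6.87 on the Pparg-deficient arrays, 6.84, 7.37 and 6.89 on the homozygous wild type arrays and 6.90, 7.15 and 7.55 on the heterozygous arrays. The lowest 2 arrays were Pparg-deficient and the highest Pparg-deficient array passed the lowest control array by 0.03, for a difference of -0.43 (SE 0.244, limma adjusted p = 0.5). Of the remaining supply enzymes, Acaca, Acss2 and Me1 were not above background on any array.

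The 3 elongases all had negative differences from both controls. Elovl6, which elongates palmitate, read 4.84, 4.43 and 5.01 on the Pparg-deficient arrays, 6.35, 5.00 and 4.85 on the homozygous wild type arrays and 6.24, 6.65 and 5.94 on the heterozygous arrays. It was above background on none of the Pparg-deficient arrays, 1 homozygous wild type array and all 3 heterozygous arrays. The signal was thus at least 2.56-fold higher in heterozygous than in Pparg-deficient cells, taking as a bound the lowest signal above background on each array (limma adjusted p = 0.138 for the fitted difference of -1.52, SE 0.417). Its difference from both controls, -1.08 (SE 0.361, limma adjusted p = 0.252), had the smallest p of the 24 genes and was not called. Without homozygous wild type replicate 1, Elovl6 was called lower in Pparg-deficient than in heterozygous cells, the 1 call among these genes in that fit. There it passed the filter through the heterozygous arrays alone, and in the main fit through the controls alone. Its lower side was thus fixed by the filter, and nothing is read from its p-values or from that call.

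Elovl5, which elongates polyunsaturated fatty acids and whose promoter is printed above, read 9.06, 8.83 and 8.38 on the Pparg-deficient arrays, 9.79, 9.45 and 9.06 on the homozygous wild type arrays and 9.41, 9.51 and 9.13 on the heterozygous arrays. The highest Pparg-deficient array just reached the lowest control array and the others lay below all controls, for a difference of -0.63 (SE 0.258, limma adjusted p = 0.351). Elovl1, which elongates saturated very long chains, read 8.74, 9.19 and 7.79 on the Pparg-deficient arrays, 8.53, 8.72 and 8.51 on the homozygous wild type arrays and 8.88, 8.56 and 9.00 on the heterozygous arrays. Pparg-deficient arrays held both its highest and its lowest value. Its 4 passing probes differed in sign, with differences from both controls of -0.13, -0.55, 0.51 and -0.24, none called.

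**Figure D4:**
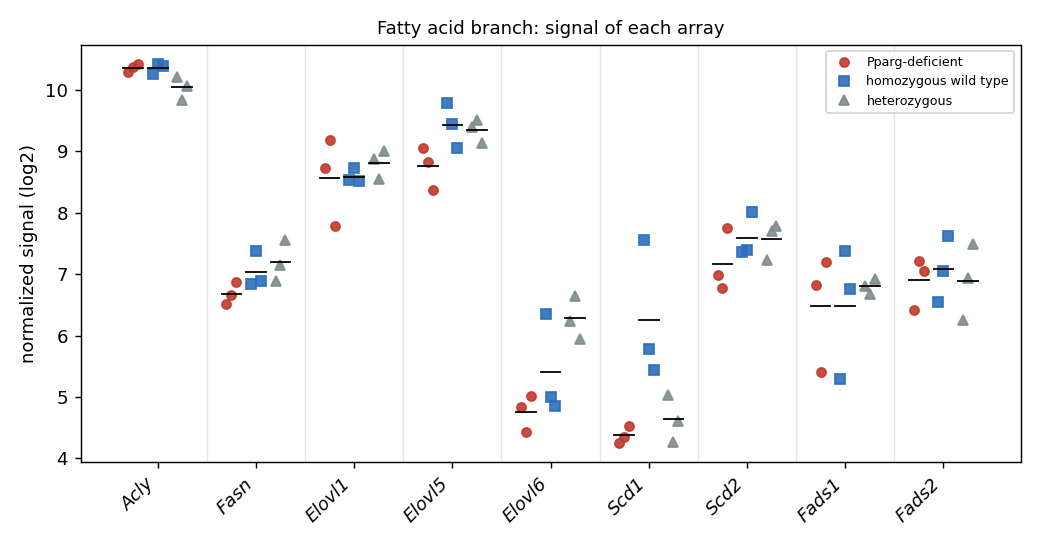
Normalized log2 signal (y axis) of the 9 measured fatty acid branch genes on each of the 9 arrays. Symbols are arrays, black lines group means of 3, and levels of different genes are not comparable. Scd1 was above background on the 3 homozygous wild type arrays and on no other, and Elovl6 on no Pparg-deficient array.

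Among the desaturases, Scd1 entered the tests through the homozygous wild type group alone. Scd1, the stearoyl-CoA desaturase that makes oleate, read 4.25, 4.35 and 4.52 on the Pparg-deficient arrays, 7.55, 5.78 and 5.43 on the homozygous wild type arrays and 5.03, 4.27 and 4.61 on the heterozygous arrays. It was above background on all 3 homozygous wild type arrays and on none of the other 6, so the way it passed the filter fixed which group was high, and its values are a description. The signal was at least 2.65-fold lower in Pparg-deficient than in homozygous wild type cells (limma adjusted p = 0.298) and at least 2.45-fold higher in homozygous wild type than in heterozygous cells (limma adjusted p = 0.61), and no call was made. The 3 homozygous wild type arrays spanned 2.12 log2 units among themselves. Probes of Scd1 to Scd4, near-identical paralogs, may share targets, and this was not tested.

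Fads2, the delta-6 desaturase of polyunsaturated fatty acids, read 6.42, 7.22 and 7.06 on the Pparg-deficient arrays, 6.55, 7.06 and 7.63 on the homozygous wild type arrays and 6.25, 6.94 and 7.50 on the heterozygous arrays. All groups overlapped, and the difference from both controls was -0.09 (SE 0.356, limma adjusted p = 0.943). Scd2, a second stearoyl-CoA desaturase, differed by -0.41 (SE 0.297) and Fads1, the delta-5 desaturase, by -0.16 (SE 0.502), neither called. That Fads1 probe carries the older name A930006B21Rik in the platform annotation, a synonym of Fads1 in RefSeq. The probe annotated as Fads1 itself did not pass the filter and was not tested. It read 6.49, 4.93 and 6.02 on the Pparg-deficient arrays, 4.30, 4.52 and 4.32 on the homozygous wild type arrays and 4.28, 4.51 and 4.49 on the heterozygous arrays. All 3 Pparg-deficient arrays lay above the controls on it, 2 of them above background and no control array.

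**Figure D5:**
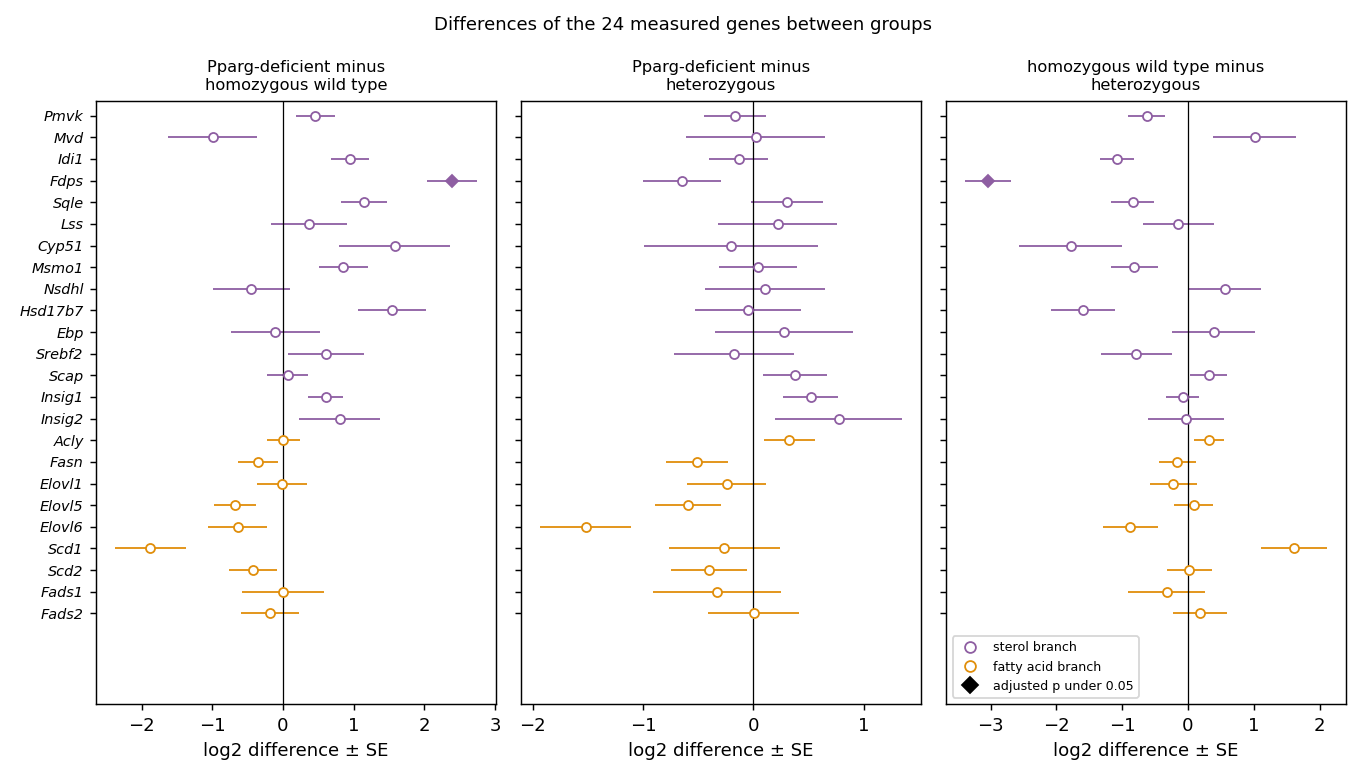
Log2 differences with standard errors (x axis) for the 24 measured genes in 3 comparisons, fitted with limma over all 9 arrays. Filled diamonds mark an adjusted p under 0.05. Most sterol genes lie right of 0 against homozygous wild type cells, around 0 against heterozygous cells and left of 0 between the control groups, and Fdps holds both calls.

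Of 37 other genes of the pathways, 26 were measured, 7 of sterol handling and 19 of fatty acid metabolism, and none was called with limma in any of the 4 comparisons, with at most 1 of either list at an unadjusted p under 0.05 in each. At an unadjusted limma p under 0.05 against both controls, 0 of the 7 and 1 of the 19 passed, beside 12.8% of all genes, and the medians were -0.08 and -0.16. The largest positive differences were those of Mbtps2, a protease that releases SREBP from the membrane (0.59, SE 0.426), and Mid1ip1, which promotes acetyl-CoA carboxylase polymerization (0.56, SE 0.247). Mid1ip1 read 7.67, 8.48 and 8.03 on the Pparg-deficient arrays, 7.35, 7.51 and 7.84 on the homozygous wild type arrays and 7.31, 7.45 and 7.54 on the heterozygous arrays. The most negative were those of Mcat, a mitochondrial fatty acid synthesis enzyme (-0.69, SE 0.752), and Mlxipl, which encodes the carbohydrate response factor ChREBP (-0.67, SE 0.548).

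Elovl6, the gene of the list with the smallest p against both controls, was set beside every other gene over the 9 arrays. The highest Pearson correlations were those of Kank4 and Snrnp27 (0.956 each), Tfdp1 (0.955), Pdhb (0.951) and Tada2b (0.945). These are the top of 12246 genes, over 9 arrays that share their groups and normalization. Elovl6 was above background on 4 of the 9 arrays, none of them Pparg-deficient, and its lower side there was fixed by the filter. Nothing is read from these correlations.

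Of the 9 genes that did not pass the filter, Mvk, Acss2, Acaca and Me1 were above background on no array, and Tm7sf2, Sc5d, Dhcr7, Srebf1 and Stard4 on 1 or 2. Sc5d and Dhcr7 act at the last steps of cholesterol synthesis, and Stard4 carries sterols in the cytosol. The probe of Stard4 was above background on 2 Pparg-deficient arrays and on no control array. Of the 24 genes tested, 16 were above background on all 9 arrays.

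Across the series, array medians of the raw signal ran from 145 to 290.3 and between 37.8% and 42.5% of probes were above background. Log2 signals correlated at a median of 0.864 within groups and 0.837 between groups. Pparg itself read 7.52 ± 0.27 on the Pparg-deficient arrays, 9.00 ± 0.80 on the homozygous wild type arrays and 9.45 ± 0.09 on the heterozygous arrays (SD, n = 3 each), all 3 Pparg-deficient arrays below the controls, with a difference of -1.70 (limma adjusted p = 0.0592). With 3 arrays a group, precision is limited by their number.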

How the data were processed

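The main table deposited by the authors gives raw intensities per probe and array. Each has a detection p-value, per the file headers, for which no method is stated. A second table deposited by the authors gives normalized intensities by an unstated method and served as an alternative. Per the labels' protocols, RNA was amplified with the NuGEN Ovation Pico WTA system and labelled with biotin.

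From the intensities, background was corrected with limma 3.58.1 (R 4.3.3) by normexp, with an offset of 16 and control-probe statistics that limma infers from detection p-values, followed by quantile normalization and log2. A probe was kept when its detection p was below 0.05 on 3 or more of the 9 arrays (21946 of 46237 probes). Symbols came from the platform annotation, updated through a RefSeq table (GRCm38.p6), and 35784 probes had 1 symbol. The brightest passing probe stood for each gene, and other passing probes are given where named. One mean per group was fitted with lmFit and eBayes, and p-values were Benjamini-Hochberg adjusted over 12246 genes in 4 comparisons. The fit was tested on simulated data.

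The genes and lists were chosen with earlier results of these data known. Genes were described array by array when they were called in any comparison, when all 3 Pparg-deficient arrays lay outside the controls, when they had the largest or smallest difference from both controls in their list, or when their probes differed in sign. Idi1, Elovl5 and Mid1ip1 were added after their values were seen. Alternatives covered background, normalization, filter, probe choice, samples in the fit, the array median as a covariate, the number as a block, and each array left out.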

Additional observations from a re-analysis of the deposited data

How the results depend on the processing

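Without background correction, with an offset of 50 and in the authors' normalized table, the calls over all genes were 276, 239 and 273 against both controls, 67, 48 and 63 against homozygous wild type cells, 348, 292 and 323 against heterozygous cells, and 15, 9 and 21 between the control groups. Without normalization between arrays 2 genes were called between the control groups, without the detection filter 0, and with every probe tested 197 were called against heterozygous cells. With both controls as 1 group 58 were called, and with only the arrays compared 10 against homozygous wild type cells and 0 between the control groups, where limma gave 780 genes at an unadjusted p under 0.05 in the fit of all arrays. With the array median as a covariate the calls were 35 against both controls and 40 against heterozygous cells. Whether equal sample numbers mark 1 mouse is not stated. Correlations of deviations from the group means ran from -0.06 to 0.22 over the 9 same-number pairs, 6 of them over 0.1, and 4 of 9 arrays correlated best with their own number in both other groups. Over the 18 different-number pairs they ran from -0.26 to 0.16, with 2 over 0.1. These correlations do not settle whether the numbers are pairs, and the main fit did not use them as pairs. With the replicate block 58 genes were called against both controls and 2 between the control groups, and Fdps kept both its calls.

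Among the synthesis genes, calls against both controls were 0 under all 21 alternatives. The Fdps call against homozygous wild type cells was lost (0 calls) without background correction, without normalization, in the authors' table, without the filter, with the mean of passing probes and with only the arrays compared. The call between the control groups was lost (0 calls) without normalization, without the filter, with the mean of probes and with only the arrays compared. Its direction was the same in every alternative run, with differences of 0.75 to 2.68 and of -3.28 to -1.07.

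The sterol median was 0.23 without background correction and 0.20 in the authors' table against homozygous wild type cells. Between the control groups it was -0.24 and -0.25 in these settings, -0.0895 without the filter and -0.32 with every probe. The fatty acid median against both controls was -0.18 without background correction, -0.71 without normalization, -0.22 in the authors' table, -0.18 without the filter, -0.14 with the covariate and -0.16 without Elovl6 and Scd1 (chosen after seeing the data). Without normalization the median of all genes was -0.29, and the calls against both controls split into 52 higher and 40 lower. Against homozygous wild type cells the fatty acid median was -0.14, -0.58, -0.17 and, with the covariate, -0.14, and against heterozygous cells -0.14, -0.60, -0.15 and -0.0929 in the same settings.

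Leaving out 1 array at a time gave 22 to 99 calls over all genes against both controls, 7 to 28 against homozygous wild type cells, 44 to 156 against heterozygous cells and 0 to 6 between the control groups, and 0 to 1 among the synthesis genes in each of the last 3. The fewest calls against both controls, 22, came without Pparg-deficient replicate 1. The sterol median against heterozygous cells ran from -0.10 to 0.36. The fatty acid median ran from -0.53 to -0.23 against both controls, -0.45 to -0.13 against homozygous wild type cells and -0.15 to 0.0874 between the control groups.

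Differences from both controls that changed sign were all uncalled. Ebp reached -0.0398 with the offset of 50, -0.0104 without background correction, -0.0111 without normalization, -0.0171 in the authors' table and -0.56 with the covariate. Without normalization Pmvk was -0.0306 and Srebf2 -0.0875. With the covariate Srebf2 was -0.19 and Fads2 0.45. Without 1 array at a time Ebp ran from -0.0993 to 0.48, Srebf2 from -0.0799 to 0.64, Fads2 from -0.25 to 0.15 and Elovl1 from -0.43 to 0.26. Ebp and Scd1 had no value in the settings where they did not pass the filter. The causes were not tested.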
